A study of Rattus norvegicus with 4 samples.

Results

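The contacts described here join different chromosomes of rat Schwann cells, and they were taken from 17 of the 20 numbered chromosomes, all except 3, 11 and 12. Each of the 17 chromosomes of the rat build rn6 was divided into bins of 1 Mb, which gave 2307 bins out of 2794 in the whole series. They form 136 pairs of chromosomes. Contacts between bins of different chromosomes (trans contacts) were counted in each library, and the preference of 2 regions for each other was expressed as observed over expected contacts (O/E). The expected number is the product of the total trans contacts of both regions, scaled to the library, so an O/E of 1 means that 2 regions met as often as their totals alone would give. After removal of 12 bins with few trans contacts, 2295 bins and 2447386 pairs of bins remained.

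In the interphase nucleus each chromosome fills a territory of its own, and trans contacts arise where territories touch or intermingle. In mammalian cells small, gene-rich chromosomes are known to lie more often in the interior of the nucleus and large ones nearer its edge, and chromatin of the same kind, active or inactive, tends to meet across chromosomes. Chromosomes 3, 11 and 12, which carry the ribosomal RNA genes in the rat and meet at nucleoli, were left out of the members and entered only the totals and the whole tables of tests.

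Hi-C, in which neighbouring stretches of DNA in the nucleus are ligated and read as pairs, was performed on primary Schwann cells, the glia of peripheral nerve, from rat sciatic nerve. All cells were grown with serum, forskolin and heregulin and were infected for 48 h at 2 viral units per cell. Lenti-AS (2 libraries) overexpressed the antisense RNA of the Egr2 promoter from a lentivirus, and Lenti-GFP (2 libraries) received a control virus with GFP. Both groups thus carry a virus, and no uninfected cells were included. Per the paper the antisense RNA was cloned into a DsRed vector and the control was a GFP vector, so the vectors differed as well. The study asked whether the antisense RNA reorganizes the genome. The labels do not say whether replicates 1 and 2 come from separate animals, so the SDs below measure only the spread between these libraries, and contact counts hold no marker by which the cell type could be checked.

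Total depth was 94956821 and 110770015 contacts for Lenti-GFP against 74811640 and 70488877 for Lenti-AS. Trans contacts made up 12.63% and 12.76% in Lenti-GFP and 13.001% and 12.94% in Lenti-AS. Between the 17 chromosomes there were 8380960 and 9859885 contacts in Lenti-GFP and 6786934 and 6367068 in Lenti-AS. A pair of chromosomes held between 21905 and 252198 contacts in a library. The exact 95% Poisson interval of the smallest of these counts ran from 98.7% to 101.3% of its value, so pairs of chromosomes were measured closely, while a single pair of bins had a median of only 12.1 expected contacts over the 4 libraries together. Such intervals cover counting error only.

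Preferences between chromosomes were alike in the 4 libraries. Of the 136 pairs, 62 had an O/E above 1 in all 4 libraries, 67 had an O/E below 1 in all 4, and 7 lay on both sides. The log2 O/E of the pairs had an SD of 0.15 across pairs, whereas its difference between replicates had an SD of 0.0091 in Lenti-GFP and 0.0092 in Lenti-AS. Counting error alone gives SDs of 0.0086 and 0.010 for these differences. Over the 136 pairs, which share chromosomes and are not independent, Pearson's r between 2 libraries lay between 0.996 and 0.998.

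The pair with the strongest preference was that of chromosomes 19 and 20, the 2 shortest. Both Lenti-GFP libraries gave an O/E of 1.58, and Lenti-AS gave 1.56 and 1.58, for a mean of 1.57. Chromosomes 18 and 20 followed with a mean of 1.29, and their O/E lay at 1.29 and 1.30 in Lenti-GFP and at 1.27 and 1.29 in Lenti-AS. The pairs 14 and 18, 1 and 2, and 13 and 20 came next, with means of 1.22, 1.22 and 1.21. Chromosome 20 therefore took part in 3 of the 5 strongest pairs, and the remaining 2 held chromosomes 14 and 18 and the 2 longest chromosomes. In these 2 pairs a part of the contacts came from few pairs of bins, as given below.

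Chromosome 20 was also a partner in 4 of the 5 weakest pairs. Chromosomes 2 and 20 had the lowest O/E, at 0.751 and 0.754 in Lenti-GFP and at 0.766 and 0.758 in Lenti-AS. The means of the pairs 1 and 20, 7 and 20, 5 and 20, and 5 and 19 were 0.774, 0.817, 0.832 and 0.839. All these pairs join a short with a long chromosome. The map of all pairs, ordered by length, shows the same pattern as a warm corner of short chromosomes, a paler warm corner of long ones and cool corners between them.

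**Figure D1:**
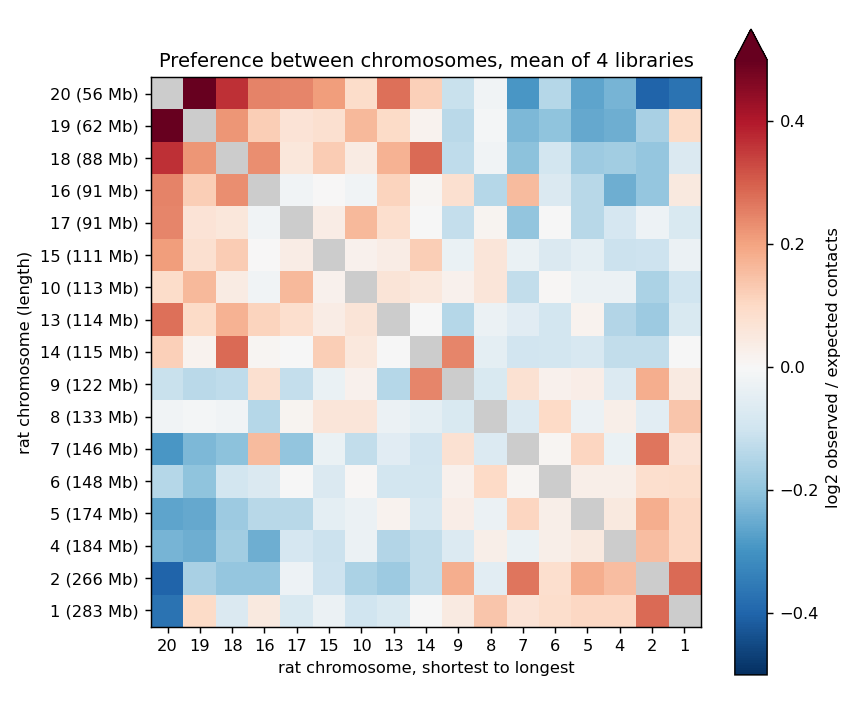
Log2 O/E of the 136 pairs of chromosomes, mean of the 4 libraries, with chromosomes ordered from the shortest (20) to the longest (1) and their lengths on the vertical axis. Red pairs met more and blue pairs less than their trans totals give, and the darkest red cell, chromosomes 19 and 20, reached an O/E of 1.57, beyond the end of the colour scale.

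Length classes were fixed as the 6 shortest chromosomes (20, 19, 18, 16, 17 and 15, from 56.2 to 111 Mb) and the 6 longest (7, 6, 5, 4, 2 and 1, from 146 to 283 Mb). Contacts between short chromosomes had a log2 O/E of 0.165 and 0.165 in Lenti-GFP and of 0.150 and 0.156 in Lenti-AS, a mean O/E of 1.12. Contacts between long chromosomes had a log2 O/E of 0.12 in each of the 4 libraries, a mean O/E of 1.09. Short with long chromosomes met less than expected, with log2 values of -0.125 and -0.125 in Lenti-GFP and -0.116 and -0.120 in Lenti-AS, a mean O/E of 0.919. In all 4 libraries, 13 of the 15 short-short pairs and 14 of the 15 long-long pairs lay above 1, and 32 of the 36 short-long pairs lay below 1.

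The preference between long chromosomes depended on how the expected value was set. A chromosome cannot make trans contacts with itself, and a plain product of totals takes no account of this. With expected values fitted so that every bin regains its own trans total (balanced expected), short-short contacts had a log2 O/E of 0.21 in place of 0.16, long-long contacts 0.070 in place of 0.12, and short-long contacts -0.12 under both. With totals taken among the 17 chromosomes the order turned, with long-long contacts at 0.15 and short-short contacts at 0.11. When bin pairs with an O/E of 5 or more, described below, were left out under the balanced expected, the long-long value was 0.000076, the short-short value 0.19 and the short-long value -0.19. This omission removes only high values and moved the median log2 O/E of all 136 pairs from -0.0022 to -0.063 under the plain expected.

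Chromosomes of similar length met more than those of unlike length. Over the 136 pairs, Pearson's r of log2 O/E with the difference of the log lengths was -0.45, and r with the sum of the log lengths was -0.15. The first lay between -0.44 and -0.54 with the balanced expected, with totals taken among the 17 chromosomes, with each pair of 10 kb bins counted once, and without 10 kb bins rich in trans contacts. The second ran from -0.00071 with totals among the 17 chromosomes to -0.35 with the balanced expected. Without the bin pairs at 5 or more r was -0.51 for the difference and -0.28 for the sum, and with the balanced expected as well these were -0.53 and -0.47. These correlations describe 17 chromosomes that each enter 16 pairs and were given no p.

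Seen from single chromosomes, the pattern turned over between chromosomes 14 and 9. For each of the 9 chromosomes up to chromosome 14 in length (115 Mb), r between its log2 O/E and the log length of its 16 partners was negative, from -0.93 for chromosome 20 to -0.52 for chromosome 14. For each of the 8 from chromosome 9 (122 Mb) upward it was positive, from 0.30 for chromosome 8 to 0.92 for chromosome 5. With the balanced expected the sign differed only for chromosome 8, at r = -0.076, and without bin pairs at an O/E of 5 or more r was -0.23 for it. Totals among the 17 chromosomes were not examined for single chromosomes. The most preferred partner was chromosome 20 for chromosomes 19, 18, 16, 17, 15 and 13, and it was chromosome 2 for chromosomes 7, 5, 4 and 1.

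**Figure D2:**
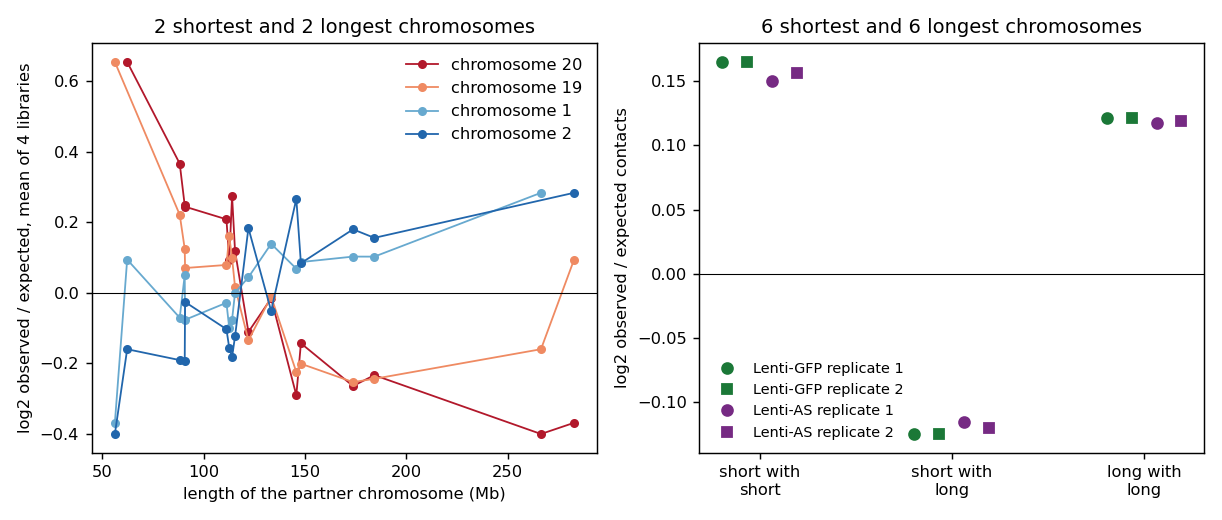
Left, log2 O/E (mean of 4 libraries) of the 2 shortest and the 2 longest chromosomes with each of their 16 partners, against partner length in Mb. Right, log2 O/E of the 3 length classes in each library, green for Lenti-GFP and purple for Lenti-AS. Chromosomes 20 and 19 lie high with short partners and low with most long ones, and chromosomes 1 and 2 run the other way, while the libraries differ little.

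Several pairs that departed from their length class held much of their contacts in few bin pairs. Chromosomes 7 and 16, 1 and 19, and 1 and 16, the 3 short-long pairs above 1, had O/E values of 1.11, 1.07 and 1.04, and without the bin pairs at 5 or more these were 0.893, 0.858 and 0.873. Chromosomes 9 and 14 went from 1.18 to 0.916 in the same way, and 23.5% of their contacts lay in 61 bin pairs. Over the 136 pairs the share of contacts in such bin pairs had a median of 1.99% and ran from 0.133% to 23.5%, and 24 of the pairs above 1 were below 1 without them. Leaving out only high values lowers pairs by construction, and the median log2 O/E of all 136 pairs was -0.063 without them against -0.0022 with them.

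Bin pairs with strong preference were few. Of the 2447386 bin pairs, 6114 (0.2498%) had an O/E of 5 or more in the 4 libraries summed, a threshold chosen after the values had been seen, and they held 4.65% of the contacts. An O/E of 50 or more was reached by 242 bin pairs and one of 100 or more by 87, whereas the median bin pair lay at 0.869 and the 95th percentile at 2.16. Of the 6114 bin pairs, 56.7% reached 5 in each of the 4 libraries alone, and of the 1822 at 10 or more 99.8% did. The share of contacts in the 6114 bin pairs was 4.52% and 4.77% in Lenti-GFP and 4.66% and 4.63% in Lenti-AS, so the groups overlapped (difference 0.00024 percentage points, two-sided exact permutation p = 1, n = 2).

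Bin pairs within 2 bins of a stronger pair on both chromosomes were not listed again. Among bin pairs with at least 20 expected contacts the strongest joined chr2:92000001-93000000 with chr17:52000001-53000000. Its O/E was 382 and 369 in Lenti-GFP and 343 and 350 in Lenti-AS, from 2664 and 3169 contacts and from 2156 and 2072 contacts. The 4 libraries thus lay close together, all far above what the totals give. The next 4 joined chr7:82000001-83000000 with chr13:100000001-101000000 (mean O/E 321), chr10:1000001-2000000 with chr14:30000001-31000000 (291), chr16:46000001-47000000 with chr18:52000001-53000000 (277), and chr7:66000001-67000000 with chr16:84000001-85000000 (267). For all 5, the contacts of 1 pair amounted to between 12.5% and 26.8% of the trans contacts of either bin.

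These contacts had shapes of their own inside the bins. Between chromosomes 2 and 17, 80% of the contacts fell within 150 kb on chromosome 2 (chr2:92060001-92210000) and within 610 kb on chromosome 17 (chr17:52260001-52870000), spread over 1559 pairs of 10 kb bins of which the fullest held 0.398%. Between chromosomes 16 and 18, 80% fell within 50 kb on chromosome 16 (chr16:46510001-46560000) and 390 kb on chromosome 18. Around the pair of chromosomes 16 and 18 the O/E was 11.5 at a distance of 1 Mb and 1.36 at 5 Mb, against 277 at the centre. Around the pair of chromosomes 7 and 16 it was 79.7 at 1 Mb and 2.04 at 5 Mb. The trans share of the 10 bins lay between 17.7% and 38.3%, all above the median of 17.4% for bins of the 17 chromosomes. This follows in part from the choice. The minimum of 20 expected contacts favours bins rich in trans contacts, and the named contacts add to the share. Without the 1% of 10 kb bins richest in trans contacts, the log2 O/E of the first pair was 1.59 in place of 8.50, that of the second had no value, and those of the other 3 were 5.88, 4.79 and 5.12 in place of 8.18, 8.11 and 8.06. Such 10 kb bins are ranked by the same contacts, so these strong contacts are left out in part by construction. Cis contacts of the 10 bins with their neighbouring bins were between 0.388 and 2.62 times the median between neighbours. The placing of the 10 bins in rn6 and the mapping of reads to them were not checked.

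**Figure D3:**
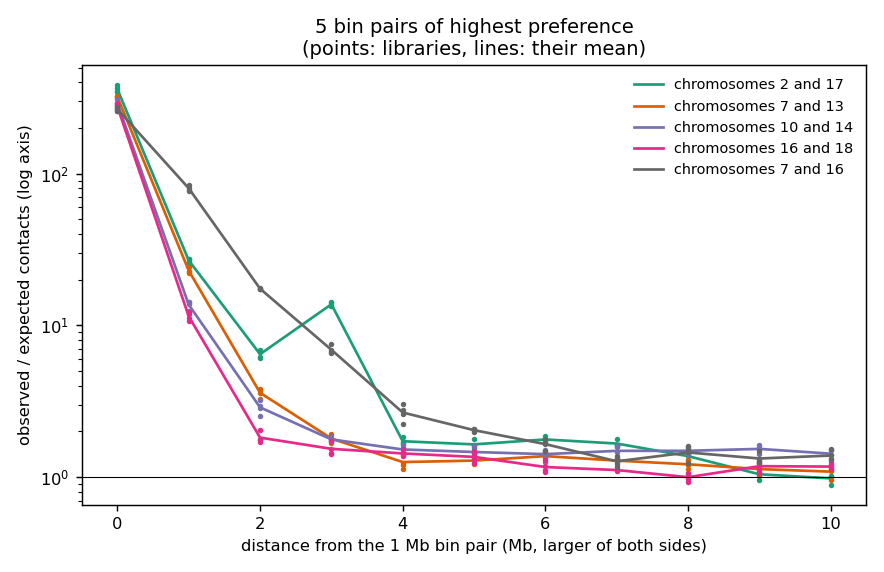
O/E (log axis) of the 5 bin pairs with the highest preference and of the bin pairs around them, against the distance from the central pair in Mb. Points are the 4 libraries and lines their mean. All 5 start between 267 and 361 and come down to 1.28 to 2.04 at 5 Mb, with a second rise at 3 Mb for chromosomes 2 and 17.

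Some single bins met 1 other chromosome far more than expected. Of 36720 values of 1 bin with 1 other chromosome, the middle 90% lay between 0.682 and 1.32, 208 (0.566%) reached 2 and 34 reached 5. Bins within 2 bins of a higher one with the same partner chromosome were not listed again. The bin chr1:24000001-25000000 with chromosome 19 was highest, with an O/E of 15.7, and it was followed by chr1:99000001-100000000 with chromosome 16 (12.97), chr2:49000001-50000000 with chromosome 19 (10.9), chr14:94000001-95000000 with chromosome 9 (10.9) and chr2:92000001-93000000 with chromosome 17 (10.7). The 5 fullest partner bins held between 32.1% and 74.3% of these contacts. Without these 5 bins the O/E was between 2.91 and 8.27, and without all bin pairs at 5 or more the log2 O/E was 0.87, 0.99, 1.2504, 0.74 and 0.60 in the order given. Trans contacts made up 35.5%, 47.9%, 27.9%, 68.2% and 27.4% of all contacts of these bins in the order given. The median for bins of the 17 chromosomes was 17.4%. The placing of these bins in rn6 and the mapping of reads to them were not checked. Much of these O/E values came from contacts of 10 kb bins rich in trans contacts, but such bins are ranked by the same contacts. Leaving them out therefore removes strong contacts in part by construction. Without the 1% of 10 kb bins richest in trans contacts the log2 O/E, between 3.42 and 3.97 before, was 1.29, 0.045, 0.063, 1.82 and -0.20 in the order given.

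Starts of chromosomes met other starts, and ends other ends, more than expected. The first 5 Mb of different chromosomes had a log2 O/E of 0.59 ± 0.011 (SD, n = 2) for Lenti-GFP and 0.59 ± 0.0028 for Lenti-AS, and the last 5 Mb had 0.37 ± 0.014 and 0.35 ± 0.0027. Starts with ends had a mean log2 O/E of 0.073 over the 4 libraries. Without the bin pairs at 5 or more, start-start contacts had 0.15, end-end contacts 0.18 and start-end contacts -0.22. Of the 136 combinations of starts, 93 lay above 1, with a median O/E of 1.16 and a maximum of 11.4 for the starts of chromosomes 2 and 7. Of the 136 combinations of ends 85 did, with a median of 1.11 and a maximum of 16.5. Of the 272 combinations of a start with an end 103 did, with a median of 0.865, and the 3 highest were at 16.9, 16.3 and 14.6.

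Bins were then sorted by the kind of cis contacts they make. The leading eigenvector of correlated cis contact profiles, which commonly separates the 2 kinds of chromatin compartment along a chromosome, was computed from the 4 libraries summed, and bins were divided by its value into 5 classes of 459 bins each, from bottom to top. Its sign was set so that it rose with the trans total of the bins, and r with that total was low, from 0.051 on chromosome 19 to 0.43 on chromosome 5. On chromosomes 1, 9, 10, 13 and 20 the second eigenvector correlated more strongly with that total. On chromosomes 10, 17 and 20 this sign ran against that of the other 14. Their top-class bins had O/E values of 0.652, 0.702 and 0.507 with top-class bins of other chromosomes and of 1.33, 1.33 and 1.42 with bottom-class bins, whereas on the other 14 chromosomes the first lay between 1.445 and 1.87 and the second between 0.606 and 0.735. Values are therefore given with the sign as set and with the sign turned on these 3 chromosomes, which was chosen after the data had been seen and uses the trans contacts themselves.

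Bins of like kind met across chromosomes. With the sign as set, top-class bins had a log2 O/E of 0.56 ± 0.015 with each other in Lenti-GFP and of 0.56 ± 0.00041 in Lenti-AS (SD, n = 2). With the sign turned on 3 chromosomes these were 0.91 ± 0.029 and 0.91 ± 0.0011, which overlapped. Bottom-class bins also met each other more than expected, and top-class with bottom-class bins met less, at an O/E of 0.441 and 0.441 in Lenti-GFP and of 0.491 and 0.487 in Lenti-AS with the sign turned. Preferences between long and short chromosomes were nearly unchanged when the expected value also held the classes of both bins, at 0.15 for short-short, 0.11 for long-long and -0.12 for short-long contacts.

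Contacts between the top and the bottom class were more frequent, and those of the bottom class with itself less frequent, in Lenti-AS. With the sign as set, contacts between bottom-class bins had a log2 O/E of 0.388 and 0.382 in Lenti-GFP and of 0.332 and 0.336 in Lenti-AS, and contacts between top and bottom classes had -0.412 and -0.419 in Lenti-GFP and -0.371 and -0.376 in Lenti-AS. The groups did not overlap in either. The differences were -0.051 and 0.042 (two-sided exact permutation p = 0.33 for each, n = 2, the smallest p that 2 against 2 libraries allow). Both exceeded the SDs between replicates, of 0.0042 and 0.0028 for the first and of 0.0051 and 0.0038 for the second. The classes came from libraries summed without equalising depth, so the deeper Lenti-GFP libraries weighed more in them. The part of this in the differences was not tested. With whichever of the first 2 eigenvectors correlated more strongly with the trans total, the differences were -0.020 and 0.034 (exact permutation p = 0.33 for each, n = 2). Other preferences were also weaker in Lenti-AS without overlap. Their differences were -0.012 for short-short, -0.0028 for long-long, 0.0069 for short-long and -0.022 for end-end contacts (exact permutation p = 0.33 for each, n = 2). In start-start, start-end and top-top contacts the groups overlapped.

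With the sign turned on 3 chromosomes the differences of bottom-bottom and top-bottom contacts were larger. Bottom-bottom contacts lay at 0.638 and 0.611 in Lenti-GFP and at 0.539 and 0.544 in Lenti-AS, a difference of -0.083. Top-bottom contacts lay at -1.18 and -1.18 in Lenti-GFP and at -1.03 and -1.04 in Lenti-AS, a difference of 0.15 (exact permutation p = 0.33 for both, n = 2). Without the 3 chromosomes, and so without any turned sign, the differences were -0.089 and 0.16. Top-top contacts differed by -0.00011 (exact permutation p = 1, n = 2). Among unlike classes, those that met less than expected in Lenti-GFP rose in Lenti-AS, and those that met more fell. Classes are numbered here from 1 at the bottom to 5 at the top. The log2 O/E of class 1 with 4, 2 with 5, 2 with 4 and 3 with 5, all negative, differed by 0.061, 0.080, 0.026 and 0.025. That of 1 with 2, 1 with 3 and 2 with 3, all positive, differed by -0.058, -0.017 and -0.018. That of 3 with 4, negative, and of 4 with 5, positive, differed by only 0.0021 and -0.00023.

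With the sign turned on chromosomes 10, 17 and 20 the difference was seen on each of the 17 chromosomes. For the top class of a chromosome with the bottom classes of the others, Lenti-AS lay above Lenti-GFP without overlap on 17 of 17 chromosomes, by 0.12 to 0.22 on the log2 scale. For its bottom class with other top classes this held on 17 of 17 as well, by 0.056 to 0.25, and for bottom-bottom contacts Lenti-AS lay lower on 17 of 17, by -0.060 to -0.10. For top-top contacts the difference ran from -0.015 to 0.010 and the groups overlapped on 17 of 17. Chromosomes share partners and libraries and are not replicates. Their values are parts of the sums given above, so the counts of chromosomes are no further test. Classes were made for these 17 chromosomes only, so no share over all chromosomes stands beside the counts. The share of trans contacts, at 12.63% and 12.76% against 13.001% and 12.94%, moved with the groups in the same way, and its part in the difference was not tested.

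**Figure D4:**
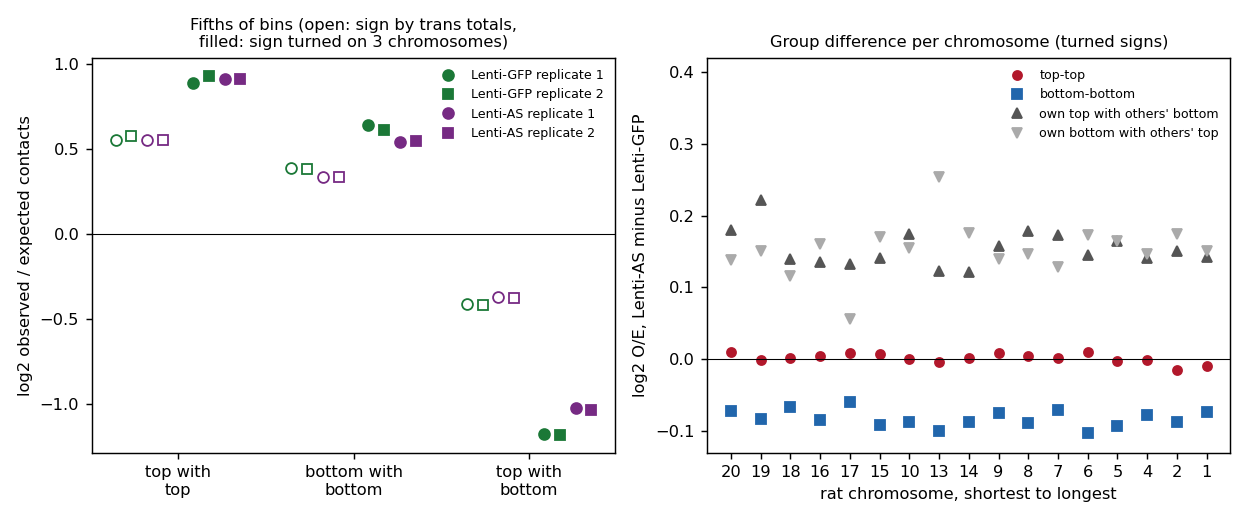
Left, log2 O/E of contacts between classes of bins in each library, with open symbols for the sign set by trans totals and filled ones for the sign turned on chromosomes 10, 17 and 20. Right, log2 O/E of Lenti-AS minus Lenti-GFP for each chromosome with all others, with turned signs. Top-top differences lie around 0, from -0.015 to 0.010, bottom-bottom differences lie below 0 and both kinds of mixed contacts lie above 0 on every chromosome.

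Preferences between whole chromosomes differed little between the groups. In the fit of edgeR, a quasi-likelihood test on contacts with the expected values as offsets and Benjamini-Hochberg adjustment over all 210 pairs of chromosomes 1 to 20 and X, 7 of the 136 pairs passed an adjusted p of 0.05, beside 6.19% of all pairs tested (2 higher in Lenti-AS beside 1.9%, 5 lower beside 4.29%). Chromosomes 15 and 19 fell by 0.028 on the log2 scale (O/E 1.07 and 1.06 in Lenti-GFP, 1.04 and 1.049 in Lenti-AS, edgeR adjusted p = 0.036), and 9 and 16, 7 and 10, 16 and 18, and 1 and 2 fell by 0.024, 0.022, 0.020 and 0.0097. Chromosomes 13 and 14 rose by 0.023 (0.993 and 0.9905 against 1.01 and 1.01, edgeR adjusted p = 0.014), and 2 and 19 rose by 0.020. The groups did not overlap in 67 of the 136 pairs, beside 50% of all 210. The differences over the 136 pairs ran from -0.028 to 0.023.

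These calls differed with the libraries left out and with the tool. Leaving out 1 library leaves its group with 1, which is then assumed to vary like the other group. Without Lenti-AS replicate 1 or without Lenti-AS replicate 2 no pair passed in edgeR (2 and 6 at an unadjusted p below 0.05), without Lenti-GFP replicate 1 there were 38 and without Lenti-GFP replicate 2 there were 22. With the replicate number as a block 6 passed, of which 3 were among the 7. With TMM factors in place of the expected values, or with totals among the 17 chromosomes, edgeR called 0 (38 and 34 at an unadjusted p below 0.05), and with TMM factors chromosomes 1 and 2 differed by 0.035. DESeq2 called 0 of the 136, with 7 at an unadjusted p below 0.05, and edgeR called 0 when the bin pairs at 5 or more were left out, with 27 at an unadjusted p below 0.05.

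Between single bins and other chromosomes, 26 of 36720 member values passed, beside 0.0829% of the 55520 tested (10 higher in Lenti-AS beside 0.027%, 16 lower beside 0.0558%). They came from 16 bins, and 2 of these gave 12 of the 26. The bin chr1:180000001-181000000 rose with chromosome 18 by 0.82 on the log2 scale (O/E 1.28 and 1.14 in Lenti-GFP, 2.21 and 2.03 in Lenti-AS, edgeR adjusted p = 8.9e-50) and with chromosome 15 by 0.34 (-0.038 without the 10 kb bins richest in trans contacts), and it fell with chromosomes 14, 17 and 4 by 0.48, 0.35 and 0.23, where the value for chromosome 4 was 0.091 with TMM factors (edgeR's library scaling) in place of the expected values. Its trans contacts per 1000000 trans contacts were also higher, at 986 and 1003 in Lenti-GFP and at 1304 and 1167 in Lenti-AS, and 86.1% of all its contacts were in trans. The part of this in the result was not tested. The bin chr13:33000001-34000000 rose with chromosomes 7, 17, 14 and 1 by 0.44, 0.27, 0.24 and 0.20 and fell with chromosomes 20, 8 and 10 by 0.46, 0.44 and 0.28. Of the increases, that with chromosome 7 was -0.019 with each pair of 10 kb bins counted once and -0.055 without bin pairs at 5 or more, that with chromosome 17 was -0.034 without the 10 kb bins richest in trans contacts, and that with chromosome 1 was -0.0085 without these bins and -0.027 without bin pairs at 5 or more. Its trans contacts per 1000000 trans contacts were 974 and 981 in Lenti-GFP and 1180 and 1105 in Lenti-AS. An increase with some partners raises the total of a bin and lowers its O/E with all others, so these values are not independent.

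Of the remaining called values, chr1:1-1000000 with chromosome 15 rose by 0.49, chr7:22000001-23000000 with chromosome 13 by 0.31 (-0.071 with each pair of 10 kb bins counted once and -0.066 without bin pairs at 5 or more), and the other 12 changed by 0.25 or 0.20 upward or by 0.074 to 0.26 downward. Of these, chr1:11000001-12000000 with chromosome 14, an increase, was -0.0013 without bin pairs at 5 or more, and of the decreases chr8:3000001-4000000 with chromosome 1 was 0.012 without these bin pairs and chr13:36000001-37000000 with chromosome 16 was 0.036 with each pair of 10 kb bins counted once. The 26 values became 0 when the 1% of 10 kb bins richest in trans contacts were left out, with 1871 at an unadjusted p below 0.05, and 10 when the bin pairs at 5 or more were. Both omissions take out strong contacts in part by construction. DESeq2 called 4. Leaving out Lenti-GFP replicate 1, Lenti-AS replicate 1 or Lenti-AS replicate 2 gave 13, 13 and 15 calls, of which 12, 13 and 14 were among the 26, and leaving out Lenti-GFP replicate 2 gave 21, of which 18 were.

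Among pairs of bins with a mean of at least 5 contacts, 15 of the 386232 member pairs tested passed, beside 0.00329% of all 516545, with 13 higher in Lenti-AS beside 0.00252% and 2 lower beside 0.000774%. Those tested were 15.8% of all member pairs, as set by this minimum. At a mean of at least 3 contacts 1042581 member pairs were tested and 4 passed. At the minimum of 5, DESeq2 called 2, and edgeR called 7, 4, 6 and 5 without Lenti-GFP replicate 1, Lenti-GFP replicate 2, Lenti-AS replicate 1 and Lenti-AS replicate 2. Of the 15, 2 had a mean under 5 contacts in Lenti-GFP and entered the test only through Lenti-AS, the group where they were high. The first of them, with the highest fold change, joined chr4:181000001-182000000 with chr6:27000001-28000000, where 1 and 1 contacts in Lenti-GFP stood against 14 and 9 in Lenti-AS (edgeR log2 fold change 3.93, adjusted p = 0.0034). With so few contacts the ratio of O/E, 17.4, has an exact 95% counting interval of 4.31 to 153. This interval holds no spread between libraries and makes no allowance for the choice of the pair by its fold change, so it gives no support. The next 4 linked chr1:1-1000000, chr1:36000001-37000000, chr4:182000001-183000000 and chr15:78000001-79000000 with each other. They include the other one, chromosome 1 at 0 Mb with chromosome 4 at 182 Mb, with 2 and 3 contacts in Lenti-GFP and 17 and 13 in Lenti-AS. Chromosome 1 at 36 Mb with chromosome 4 at 182 Mb had 13 and 5 contacts in Lenti-GFP and 47 and 45 in Lenti-AS, mean O/E values of 2.47 and 17.01 (edgeR log2 fold change 2.81, adjusted p = 6.6e-14). The 2 decreases were chr1:55000001-56000000 with chr2:102000001-103000000, with 117 and 133 against 53 and 48 contacts (edgeR log2 fold change -0.84, adjusted p = 0.012), and chr6:70000001-71000000 with chr9:7000001-8000000, with 613 and 720 against 438 and 422 (log2 fold change -0.37, adjusted p = 0.0031). No decrease was called with DESeq2, at a mean of at least 3 contacts, or by edgeR without Lenti-GFP replicate 1, Lenti-AS replicate 1 or Lenti-AS replicate 2, and 1 was without Lenti-GFP replicate 2.

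Several of the increases came down to single 10 kb bins. In 6 of the 13, 1 pair of 10 kb bins held between 78.7% and 93.6% of the contacts of the 1 Mb pair in the 4 libraries summed. At least 75% was required, so the rise in Lenti-AS counted towards it and this share gives no support. In Lenti-GFP alone the 10 kb pair of chromosomes 7 and 13 held 70 of 124 and 60 of 128 contacts. That of chromosome 1 at 36 Mb with chromosome 4 held 12 of 13 and 3 of 5. The 10 kb bins of the 6 pairs, with further ones linked to them by at least 100 contacts, formed 2 sets of 4 bins each. The first was chr1:270001-280000, chr1:36360001-36370000, chr4:182010001-182020000 and chr15:78120001-78130000, whose 5 trans pairs held 33 and 20 contacts in Lenti-GFP and 136 and 144 in Lenti-AS. Per 1000000 trans contacts this was 2.09 ± 0.947 (SD, n = 2) for Lenti-GFP and 14.9 ± 1.27 for Lenti-AS, a ratio of 7.14. The second was chr1:180700001-180710000, chr1:181180001-181190000, chr7:22320001-22330000 and chr13:33500001-33510000, with 116 and 133 contacts in Lenti-GFP and 556 and 597 in Lenti-AS, or 9.56 ± 0.186 and 61.4 ± 5.85 in the same unit, a ratio of 6.42. In both sets each of the 5 pairs was higher in both Lenti-AS libraries than in either Lenti-GFP library. The bins were chosen through the called increases and the link in these same libraries, so this adds no support. The bins of chromosome 1 in the second set were added by this link. With the bin on chromosome 13 they had 21 and 28, and 15 and 14, contacts in Lenti-GFP. In Lenti-AS they had 141 and 141, and 68 and 88. They thus passed the link only through Lenti-AS, the group where they were high, and their pairs give no support. The sums and the ratio of the second set include these pairs. Between the sets 0 trans contacts were found in any library, where a count of 0 allows up to 3.

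Of the second set, 2 bins lay within the 1 Mb bins named above at 180 Mb of chromosome 1 and 33 Mb of chromosome 13. The fullest pair of this set joined chromosomes 7 and 13, with 70 and 60 contacts in Lenti-GFP and 256 and 281 in Lenti-AS, and the 1 Mb pair around it had mean O/E values of 8.37 and 21.8 (edgeR log2 fold change 1.39, adjusted p = 1.1e-33). With each pair of 10 kb bins counted once, which removes repeated contacts of 1 pair, the log2 fold change of the 1 Mb pair was -0.42. Total trans contacts of the 10 kb bin on chromosome 13 were 1346 and 1884 in Lenti-GFP and 3432 and 2616 in Lenti-AS. The 2 sets were found from the calls, so their values describe the calls and are no further test of them. The 1 Mb bins of the second set had few cis contacts with neighbours. For chromosome 1 at 180 Mb these were 0.030 and 0.159 times the median, and at 181 Mb 0.159 and 0.033. They were 0.029 and 0.045 for chromosome 7, and 0.504 and 0.141 for chromosome 13. Trans shares were 86.1%, 81.8%, 70.3% and 42.6%. In the first set 0 Mb of chromosome 1 had 0.141 and 58.5%, and the other bins 0.774 to 2.07 and 16.3% to 18.2%. The part of this in the changes was not tested. The sequence of these 10 kb bins was not analysed here.

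**Figure D5:**
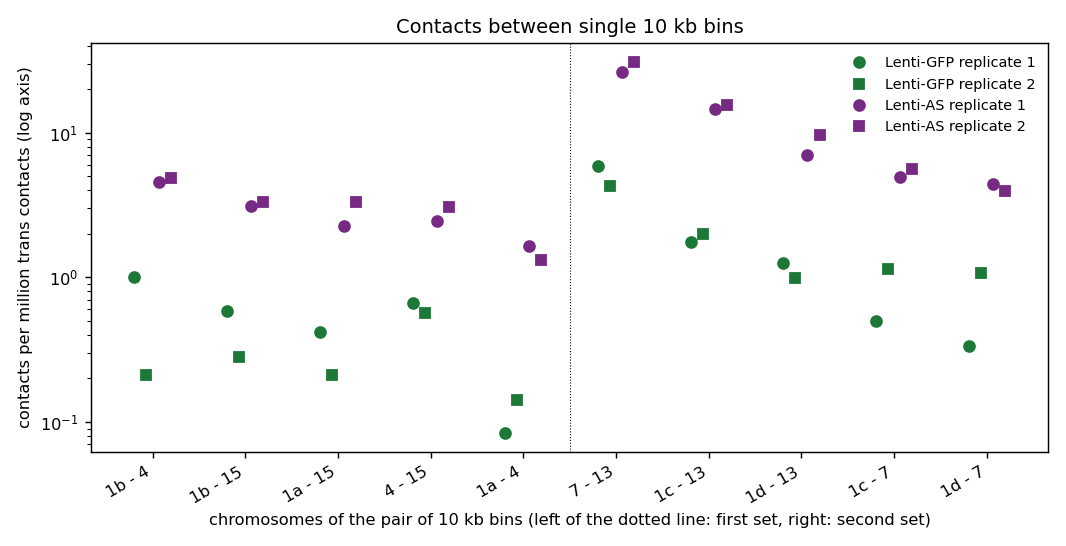
Contacts per 1000000 trans contacts (log axis) between single 10 kb bins in each library, the first set left and the second set right of the dotted line, labelled by chromosome. On chromosome 1 the letters a to d stand for the bins at 270001, 36360001, 180700001 and 181180001. In all 10 pairs both Lenti-AS libraries (purple) lie above both Lenti-GFP libraries (green). The bins were chosen through increases called in these same libraries, so this is no further test.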

How the data were processed

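Hi-C libraries (Arima kit, paired reads of 150 bases) were deposited by the authors as raw contact counts between 10 kb bins, made with HiC-Pro on the rat build Rnor_6.0 per the labels and the submitters' processing notes. The deposited counts were not normalised. They were summed to 1 Mb bins, and bins under 0.25 of the median trans total were left out. Expected values were products of trans totals over chromosomes 1 to 20 and X. Groups were compared with edgeR 4.0.16 (quasi-likelihood, log expected values as offsets, R, Benjamini-Hochberg adjustment over each whole table), with DESeq2 1.42.0 as an alternative, and single values by exact permutation of libraries. Bins by chromosome needed a mean count of 10 and bin pairs a mean count of 5. Named were the 5 highest and the 5 lowest pairs of chromosomes. For bins with a chromosome and for bin pairs only the 5 highest were named, at a summed expected count of at least 20, with neighbouring bins counted once. At each level up to 5 called features of largest change in each direction were named. The members, classes and lists were chosen with earlier results of these data known. The sign turned on 3 chromosomes, the threshold of 5 and the 10 kb sets were chosen after seeing the values. Depth is given with the results.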

Additional observations from a re-analysis of the deposited data

How the results depend on the processing

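The minimum of 5 mean contacts let 15.8% of bin pairs into the test. Counts under an alternative need not be of the same features, and a group left with 1 library was assumed to vary like the other. The 10 kb bins rich in trans contacts were ranked by the same contacts, so leaving them out removes strong contacts in part by construction. The 15 called bin pairs became 2 with DESeq2, 4 at a mean count of at least 3 (1042581 member pairs tested), 9 with 2 Mb bins, 2 with each 10 kb pair counted once, 7 without 10 kb bins rich in trans contacts and 3 without bin pairs at an O/E of 5 or more (11 of the 15 lie there and leave the test by construction), and 4 to 7 when 1 library was left out. The 26 values of a bin with a chromosome became 173 with TMM factors only, 4 with DESeq2, 14 with each 10 kb pair once, 0 without bins rich in trans contacts (1871 at an unadjusted p below 0.05) and 10 without bin pairs at 5 or more, and 13 to 21 when 1 library was left out. The 7 chromosome pairs became 0 with TMM factors, with totals among the 17 chromosomes, without bin pairs at 5 or more and with DESeq2 (38, 34, 27 and 7 at an unadjusted p below 0.05), 4 with the balanced expected and 14 with each 10 kb pair once, and 0 to 38 when 1 library was left out.

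Over 136 chromosome pairs the deviations of replicate 1 from 2 correlated at -0.16 between groups. These deviations lay near counting error, so the correlation cannot tell whether libraries of the same number belong together. With the replicate number as a block, 6 chromosome pairs (3 of them among the 7), 27 bin values and 15 bin pairs were called. With the numbers crossed, a pairing chosen after seeing the data, 0 (30 at an unadjusted p below 0.05), 26 and 15 were.

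Among differences between the groups, for which p = 0.33 is the smallest exact permutation p (n = 2), that of the length correlation (0.0054) was -0.0053 with the balanced expected and -0.0067 with it and without bin pairs at 5 or more. The start-start difference (0.00053) was -0.00089 with totals among the 17 chromosomes, -0.0059 with each 10 kb pair once, -0.034 without bins rich in trans contacts, -0.000016 with no filter on bins, -0.028 without bin pairs at 5 or more under either expected value, and -0.0034 with ends of 10 Mb. The start-end difference (-0.0038) was 0.0050, 0.0014, 0.0031 (0.0036 balanced) and 0.0035 with each 10 kb pair once, without rich bins, without bin pairs at 5 or more and with 10 Mb ends. The top-top difference (-0.0082) was 0.00018 with turned signs and the balanced expected and 0.0024 with turned signs and without rich bins. With 1 library left out the differences lay between -0.0070 and 0.0081 for start-start, -0.0088 and 0.0012 for start-end and -0.019 and 0.0027 for top-top contacts.

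Of single results, the log2 O/E of 2:92 Mb to chromosome 17 was -0.20 without bins rich in trans contacts. With TMM factors the log2 fold changes of chromosomes 1-2 and of 1:180 Mb with chromosome 4 were 0.035 and 0.091. With each 10 kb pair once, which removes repeated contacts of 1 pair by construction, those of 7:22 Mb with chromosome 13, 13:33 Mb with chromosome 7, 13:36 Mb with chromosome 16, 1:180 Mb with 13:33 Mb and 7:22 Mb with 13:33 Mb were -0.071, -0.019, 0.036, -0.23 and -0.42. Without bins rich in trans contacts those of 1:180 Mb with chromosome 15, 13:33 Mb with chromosomes 1 and 17, and 1:180 Mb with 13:33 Mb were -0.038, -0.0085, -0.034 and -0.14. Without bin pairs at 5 or more those of 1:11 Mb with chromosome 14, 7:22 Mb with chromosome 13, 8:3 Mb with chromosome 1, and 13:33 Mb with chromosomes 1 and 7 were -0.0013, -0.066, 0.012, -0.027 and -0.055. The cause of the other changes was not tested.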

Other observations

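Bin pairs at an O/E of 5 or more were spread over 1921 bins, 83.7% of those kept, and formed 3390 groups of neighbouring bin pairs, of which 2471 held a single pair. The bins with most such partners were chr4:1000001-2000000 with 68, chr15:35000001-36000000 with 67 and chr9:117000001-118000000 with 66. The group with most bin pairs, 49, joined chr1:53000001-78000000 with chr8:3000001-5000000 at an O/E of 34.2.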
